A study of Mus musculus with 20 samples.

Results

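The 9 antigen presentation and immunoproteasome genes described here were taken by name from the 19269 genes of a count table of mouse preoptic area, the hypothalamic region where many neurons that make gonadotropin-releasing hormone (GnRH) lie. On the class I side stand 7 of them, H2-K1, H2-D1, H2-T23, B2m, Tap1, Psmb8 and Psmb9, and on the class II side 2, H2-Ab1 and Cd74. All 9 had counts in the table and all 9 passed the filter on low counts in every comparison. The table covered 20 libraries, 6 of them from a pull-down meant to recover tagged ribosomes (IP) and 14 of the supernatant left after it. Only 1 of the 6 IP libraries came from mice with tagged ribosomes. Each biological sample was a pool of preoptic punches from 3 to 4 female mice, either adult (70 to 150 days, in diestrus) or young (day 21).

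In GnRH CRE x Floxed L10a-GFP mice, GnRH neurons carry a GFP-tagged ribosomal protein, so that an antibody to GFP recovers their ribosomes with the mRNA on them. A GFP-positive adult pool of this genotype gave 1 IP and 1 supernatant. The negative controls had no tagged ribosomes. They were 2 adult pools that carried GnRH CRE only and 3 young pools (wild type for pools 1 and 2, Floxed L10a-GFP only for pool 3), and each title number has an IP and a supernatant library. The labels do not say in words that both came from the same pool. The effects of age and genotype cannot be told apart in the negative pools. The 6 numbered samples are called new pools. Among these, the GFP-positive one included, no genotype occurred at both ages. The other 8 libraries were supernatants of 4 GFP-positive pools of an earlier series, called prior pools, 2 adult and 2 young, with the same RNA sequenced in a second and a first set. The prior pools had the genotype GnRH CRE x Floxed L10a-GFP at both ages. Any treatment of these mice in the earlier series was not given in the labels. The strain background was not given either, which matters for genes as polymorphic as those of the major histocompatibility complex (MHC).

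Class I molecules display peptides from proteins made inside the cell. The proteasome cuts these proteins, with its catalytic subunits exchanged for inducible ones in the immunoproteasome, the TAP transporter carries the peptides into the endoplasmic reticulum, and a heavy chain paired with beta-2 microglobulin takes them to the cell surface. Class II molecules are loaded with peptides of internalised material in a narrower set of cells, after the invariant chain has been removed. Interferons raise the transcription of genes of both sides, and in healthy brain the levels are low, with class II found mainly in macrophages and other immune cells.

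Of the 9 genes, 7 lie on chromosome 17 in the MHC region, by the GENCODE annotation of GRCm38 (mm10). H2-K1 spans chr17:33996017-34000347 on the minus strand, H2-D1 chr17:35262730-35267499 on the plus strand and H2-T23 chr17:36029773-36032855 on the minus strand. Psmb9 (chr17:34181987-34187764, minus strand), Tap1 (chr17:34187553-34197225, plus strand) and Psmb8 (chr17:34197721-34201454, plus strand) are neighbours. H2-Ab1 follows at chr17:34257689-34269419 on the plus strand. B2m lies elsewhere, at chr2:122147686-122153083 on the plus strand. Tap1 and Psmb9 overlap by 212 bases on opposite strands, and without a known strand setting the reads from there cannot be told apart. The strains' alleles and near-identical genes also limit the values. Of the 50-base stretches of the longest transcript, 29.8% in H2-T23, 14.3% in H2-D1, 12.5% in Psmb9, 8.79% in H2-K1, 6.47% in Tap1 and 5.83% in Psmb8 occurred in a transcript of another gene. None did in B2m, H2-Ab1 or Cd74.

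The promoters of 4 class I side genes are shown. Those of H2-K1, H2-D1 and B2m were taken because each of these chains was called higher with age, H2-D1 with the smallest difference. That of Tap1 was taken because Psmb9 starts from the same stretch on the other strand. H2-T23 was called higher with age too, and its window is not shown. Each window runs from 250 bases before to 50 bases after the start of transcription, 5′ to 3′ on the gene's strand, from RefSeq on GRCm38.p6. Windows were at hand for 7 members. Capitals mark matches to ATTGG (the Y box), GAAA with any 2 bases before another GAAA (the core of an interferon-stimulated response element), TTCNNNGAA (a gamma-activated site), GGGGATTCCCC (the class I enhancer A) and AGTTTCACTT (the class I interferon element), searched on both strands. The letters of the last pair were read from the H2-K1 window itself, after it had been seen. The H2-K1 window is chr17:34000284-34000583 (minus strand), that of H2-D1 chr17:35262844-35263143 (plus), that of B2m chr2:122147437-122147736 (plus) and that of Tap1 chr17:34187306-34187605 (plus).
H2-K1: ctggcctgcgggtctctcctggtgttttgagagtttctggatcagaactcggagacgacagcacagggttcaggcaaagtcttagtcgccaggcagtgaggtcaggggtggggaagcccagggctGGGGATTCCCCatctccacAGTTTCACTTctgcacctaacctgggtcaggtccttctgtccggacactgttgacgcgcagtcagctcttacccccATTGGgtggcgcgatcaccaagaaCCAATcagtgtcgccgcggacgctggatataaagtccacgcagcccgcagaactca
H2-D1: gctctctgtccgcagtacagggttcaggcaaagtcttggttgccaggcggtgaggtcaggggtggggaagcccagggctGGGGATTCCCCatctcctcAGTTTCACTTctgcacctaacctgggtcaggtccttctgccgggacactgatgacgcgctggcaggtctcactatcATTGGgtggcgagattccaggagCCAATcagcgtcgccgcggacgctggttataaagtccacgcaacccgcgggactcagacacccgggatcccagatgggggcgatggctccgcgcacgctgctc
B2m: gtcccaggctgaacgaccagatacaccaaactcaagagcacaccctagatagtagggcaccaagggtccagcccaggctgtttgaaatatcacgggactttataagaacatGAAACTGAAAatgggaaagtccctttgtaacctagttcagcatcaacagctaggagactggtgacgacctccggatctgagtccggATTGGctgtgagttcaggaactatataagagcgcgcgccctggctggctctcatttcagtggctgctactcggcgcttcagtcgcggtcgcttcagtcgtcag
Tap1: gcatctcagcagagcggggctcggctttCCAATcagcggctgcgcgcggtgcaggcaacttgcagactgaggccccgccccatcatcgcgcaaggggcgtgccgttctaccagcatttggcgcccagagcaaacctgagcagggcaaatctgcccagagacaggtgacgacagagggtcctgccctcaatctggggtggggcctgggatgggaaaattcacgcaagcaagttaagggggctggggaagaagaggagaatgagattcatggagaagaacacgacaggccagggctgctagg

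GGGGATTCCCC and AGTTTCACTT stood side by side in both heavy chain windows, whose longest identical run was 47 bases. Among all 32851 windows of this length, 0.0304% held the first and 0.14% the second. The response element core was in the B2m and H2-T23 windows and in 3.44% of all windows. ATTGG was found in B2m, H2-K1, H2-D1, H2-T23, Tap1 and Psmb9, and in 37.4% of all windows. TTCNNNGAA was found in Psmb8 alone of the 7, and in 8.3% of all windows. A separate NF-kappa B motif, GGGA, any base, TT, any base and CC, matched in B2m, where it is left in lower case. It matched in 1.2% of all windows. The letters GGGGATTCCCC do not match it, so its absence from both heavy chain windows does not show that they lack such a site. The Tap1 and Psmb9 windows share 275 bases on opposite strands, so their matches to ATTGG are not separate. These are matches of letters, and binding was not measured.

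The libraries held 27.7 to 50.5 M counts, and 3 counts, taken as the floor of detection, were 0.0588 to 0.109 CPM, the count scaled to library size with trimmed-mean factors over the 20 libraries. No 2 libraries were identical. The tissue label was borne out by its markers, since the 8 preoptic genes, Gnrh1 and Gal among them, summed to 169 to 284 CPM in adult and 123 to 265 CPM in young supernatants. In the GFP-positive IP, Gnrh1 alone stood at 1460 CPM.

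The main question for these genes was how adult and young preoptic area differ, over 10 supernatants of the second sequencing set. Of the 9 genes, 8 rose with age and none fell, where 9.76% of the 15537 genes tested were called, 4.16% higher and 5.6% lower. The exception was Tap1, whose difference of similar size did not pass. On the class I side 6 of 7 rose, with a median log2 fold change of 1.22, and on the class II side 2 of 2, with a median of 1.75, beside a median of 0.004 over all genes tested. The 9 genes, and the lists read beside them below, were chosen with earlier results of these data known. Their excess of calls over the share of all genes is therefore a description and no independent support. The test was edgeR's quasi-likelihood test with age and pool origin (prior or new) as terms and Benjamini-Hochberg adjustment over all genes, at 5 adult against 5 young pools, and its p-values measure the spread between pools. Left out in turn, the 10 libraries gave 6 to 9 of the 9 genes, and over all genes 731 calls without adult negative pool 1, 862 without young negative pool 2 and 945 without adult prior pool 3, in place of 1517. Genotype was not a term of this fit. In the new pools no genotype occurred at both ages, so age and genotype cannot be told apart there. Only the prior pools had the same genotype at both ages. In bulk tissue, fewer cells of a type and less RNA per cell cannot be told apart.

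**Figure D1:**
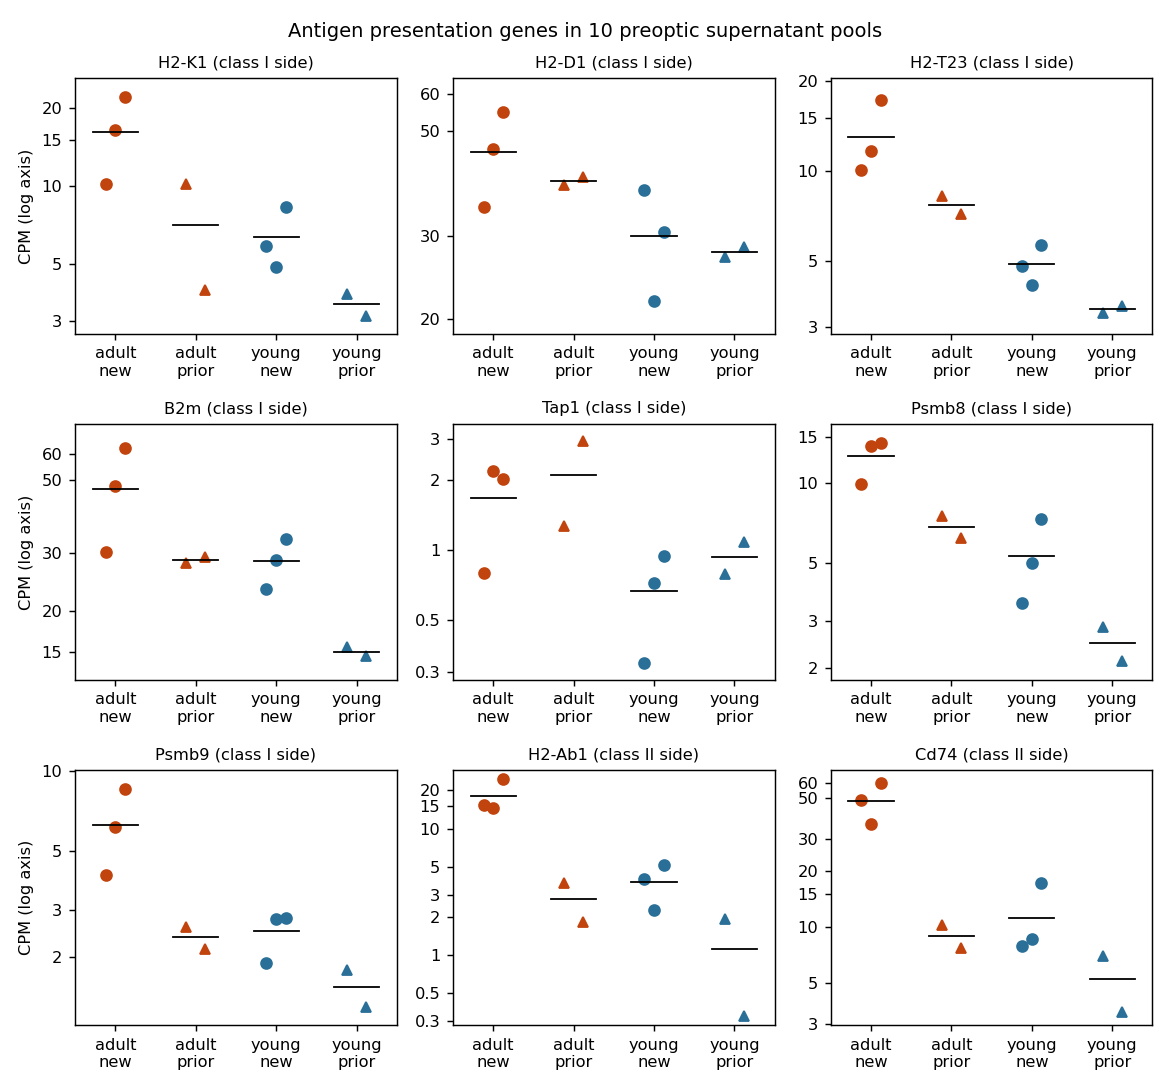
CPM of the 9 genes (vertical log axes) in the 10 second-set supernatants, with adult pools left in orange and young pools right in blue; circles are new pools, triangles prior pools and bars the mean of each subgroup. Adult pools lie higher than young pools of the same origin on average for every gene, and the H2-T23 values of adult pools, 7.18 to 17.3 CPM, all exceed those of young pools, 3.36 to 5.67 CPM.

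Psmb8 and Psmb9 encode inducible catalytic subunits of the immunoproteasome. Psmb8 stood at 9.96, 13.8, 14.2, 7.49 and 6.22 CPM in the adult pools (GFP-positive, negative 1 and 2, prior 3 and 4), against 3.53, 5.01, 7.32, 2.85 and 2.12 CPM in the young pools (negative 1 to 3, prior 1 and 2). Only young negative pool 3 reached into the adult range. The means were 10.3 ± 3.61 CPM in adult and 4.17 ± 2.06 CPM in young pools (SD, n = 5 each), and the log2 fold change was 1.33 (SE 0.20, edgeR adjusted p = 0.0018). Psmb9, in the same order of pools, stood at 4.07, 6.14, 8.56, 2.59 and 2.15 CPM in adult against 1.89, 2.79, 2.81, 1.78 and 1.30 CPM in young pools. The adult prior pools lay within the young range, and the new adult pools above it. Psmb9 rose by 1.05 on the log2 scale (SE 0.26, edgeR adjusted p = 0.0225). Its adjusted p was 0.054 without young negative pool 1, 0.0573 without young negative pool 2, 0.0628 without adult negative pool 1 and 0.0574 without adult negative pool 2.

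Tap1, a subunit of the peptide transporter, was the scarcest member. It stood at 0.80, 2.19, 2.03, 1.27 and 2.95 CPM in the adult pools, against 0.327, 0.724, 0.946, 0.79 and 1.09 CPM in the young pools. Only the GFP-positive adult pool lay among the young ones. The log2 fold change was 1.25 with an SE of 0.39 (edgeR adjusted p = 0.0596), and DESeq2 gave adjusted p = 0.0199. Without young negative pool 3 or the GFP-positive pool the edgeR adjusted p was 0.0485 and 0.042.

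H2-K1 and H2-D1 encode the classical class I heavy chains. H2-K1 stood at 10.2, 16.4, 22, 10.2 and 3.95 CPM in adult against 5.85, 4.85, 8.30, 3.82 and 3.16 CPM in young pools, so that only adult prior pool 4 lay within the young range. It rose by 1.22 on the log2 scale (SE 0.27, edgeR adjusted p = 0.0143; 0.0549 without adult prior pool 3). H2-D1 was more abundant and differed least of the 9, at 34.6, 46.0, 54.9, 38.5 and 40.0 CPM in adult against 37.6, 21.9, 30.6, 27.1 and 28.4 CPM in young pools. Young negative pool 1 lay above the lowest adult pool. Its log2 fold change was 0.55 (SE 0.14, edgeR adjusted p = 0.0306). The call on H2-D1 was lost without young negative pool 2 (adjusted p = 0.06), adult negative pool 1 (0.0784) or 2 (0.0736), young prior pool 1 (0.0559), or adult prior pool 3 (0.0573) or 4 (0.0574). It was lost too with the first-set libraries of the prior pools (0.0871).

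H2-T23 encodes the nonclassical heavy chain Qa-1, which presents leader peptides of other class I chains to receptors of natural killer cells. It stood at 10.1, 11.7, 17.3, 8.24 and 7.18 CPM in adult pools against 4.83, 4.16, 5.67, 3.36 and 3.54 CPM in young pools, without overlap. Such separation upwards was found in 2.5% of the genes tested and downwards in 3.88%, and among the 9 members in H2-T23 alone. The log2 fold change was 1.31 (SE 0.18, edgeR adjusted p = 0.000779). B2m, the light chain that pairs with the class I heavy chains, stood at 30.3, 48.1, 62.9, 28 and 29.2 CPM in adult against 23.3, 28.5, 33.1, 15.5 and 14.5 CPM in young pools. Its ranges overlapped through the new young pools, and it rose by 0.81 on the log2 scale (SE 0.16, edgeR adjusted p = 0.00989).

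H2-Ab1 encodes the beta chain of the class II molecule I-A. It stood at 15.4, 14.5, 24.6, 3.70 and 1.83 CPM in the adult pools against 3.96, 2.28, 5.16, 1.91 and 0.325 CPM in the young pools. The 3 new adult pools lay far above the others, and both adult prior pools within the young range. H2-Ab1 had the largest log2 fold change of the 9, 1.91 (SE 0.39, edgeR adjusted p = 0.00991), with means of 12 ± 9.35 CPM in adult and 2.73 ± 1.88 CPM in young pools (SD, n = 5 each). Cd74 (chr18:60803848-60812652, plus strand), the invariant chain that occupies the class II groove until loading, stood at 48.3, 36.0, 59.7, 10.2 and 7.71 CPM in adult against 7.85, 8.58, 17.2, 6.96 and 3.45 CPM in young pools. It had the same shape, with the new adult pools apart, and rose by 1.59 on the log2 scale (SE 0.31, edgeR adjusted p = 0.00727).

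Adult negative pool 2 held the highest value for 8 of the 9 genes. On a scale per kilobase of the longest transcript, which allows levels of different genes to be compared, the adult order was B2m (46.2 CPM per kb), Cd74 (23), H2-D1 (20.4), H2-Ab1 (9.91), H2-K1 (7.75), H2-T23 (7.41), Psmb8 (6.35), Psmb9 (3.48) and Tap1 (0.626). Cd74 and H2-D1 differed by less than the larger SD of the pair, as did the neighbours from H2-Ab1 down to Psmb8. In young pools H2-D1 came second (13.8 CPM per kb) after B2m (26.7) and before Cd74 (6.25), and H2-Ab1 was seventh (2.25). There the neighbours from Cd74 down to Psmb9 differed by less than the larger SD of each pair.

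The age difference was examined within pool origin as well. In the 3 adult against 3 young new pools, 5 of the 9 genes rose: H2-Ab1 (log2 2.27), Cd74 (2.1), H2-T23 (1.43), H2-K1 (1.37) and Psmb8 (1.27), where 3.08% of all genes were called. In the prior pools, with 2 adult against 2 young and the same genotype at both ages, edgeR called none of the 9 (adjusted p of 0.125 to 0.595), and 11 genes of the whole table (0.0704%). All 9 fold changes were positive there too, between 0.50 (H2-D1) and 1.46 (Psmb8), with 0.78 for Cd74 and 1.30 for H2-Ab1. In the first-set libraries of those pools they ran from 0.28 (H2-D1) to 1.56 (H2-Ab1), again with none called, and with 0.178% of all genes called. The test of the difference between prior and new pools in the age effect called no member. Its lowest value was that of Cd74, at log2 -1.32 (SE 0.52, unadjusted p = 0.0253, edgeR adjusted p = 0.999). Over all genes that test called 1 gene by edgeR, with 564 at an unadjusted p under 0.05, and 10 by DESeq2. A fit with age alone, without the term for origin, called only H2-T23 (adjusted p = 0.00896) and Psmb8 (0.0438), where 4.22% of all genes were called.

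Prior pools stood below new pools for most of the genes. In this contrast, added after the data had been seen, 7 of the 9 fell and none rose, where 13.2% of all genes were called, 5.85% lower and 7.37% higher. The largest falls were on the class II side, with H2-Ab1 at log2 -2.26 (SE 0.42, edgeR adjusted p = 0.00967) and Cd74 at -1.77 (SE 0.33, adjusted p = 0.00959). Adult prior pools averaged 2.77 ± 1.32 CPM of H2-Ab1 (SD, n = 2) against 18.2 ± 5.59 CPM in adult new pools (n = 3). Psmb9 (-1.06), H2-K1 (-1.03), Psmb8 (-0.99), B2m (-0.82) and H2-T23 (-0.64) fell as well, while H2-D1 (-0.16, adjusted p = 0.496) and Tap1 (0.39, adjusted p = 0.526) did not pass. Of the other class II genes 3 of 9 fell with them, H2-Aa (-1.79), H2-Eb1 (-1.39) and Ctss (-0.82), and none rose. Prior pools also held less of the markers of meninges and fibroblasts, which summed to 23.8 to 134 CPM in prior against 106 to 431 CPM in new pools, with 3 of 6 called lower. Microglial markers summed to 51.2 to 105 CPM in prior and 75.3 to 107 CPM in new pools, with 3 of 10 called lower and a median of log2 -0.48. Border macrophage markers summed to 5.94 to 23.3 CPM in prior and 12.8 to 29.5 CPM in new pools. Their median was -0.95 with none of 7 called, and that of endothelial markers -0.88 with none of 8. Of astrocyte and of oligodendrocyte markers 2 of 6 each were lower. Of neuronal markers 1 of 6 was higher, and of preoptic markers 2 of 8. The part of these cells in the difference was not tested, and series, genotype and any earlier treatment cannot be told apart here. The count was 2 of 9 without young prior pool 2, 3 without adult prior pool 4 and 4 without adult negative pool 2, with 313, 502 and 1127 calls over all genes in place of 2054. Without young negative pool 2 there were 1053 such calls, and without adult prior pool 3 there were 1152.

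**Figure D2:**
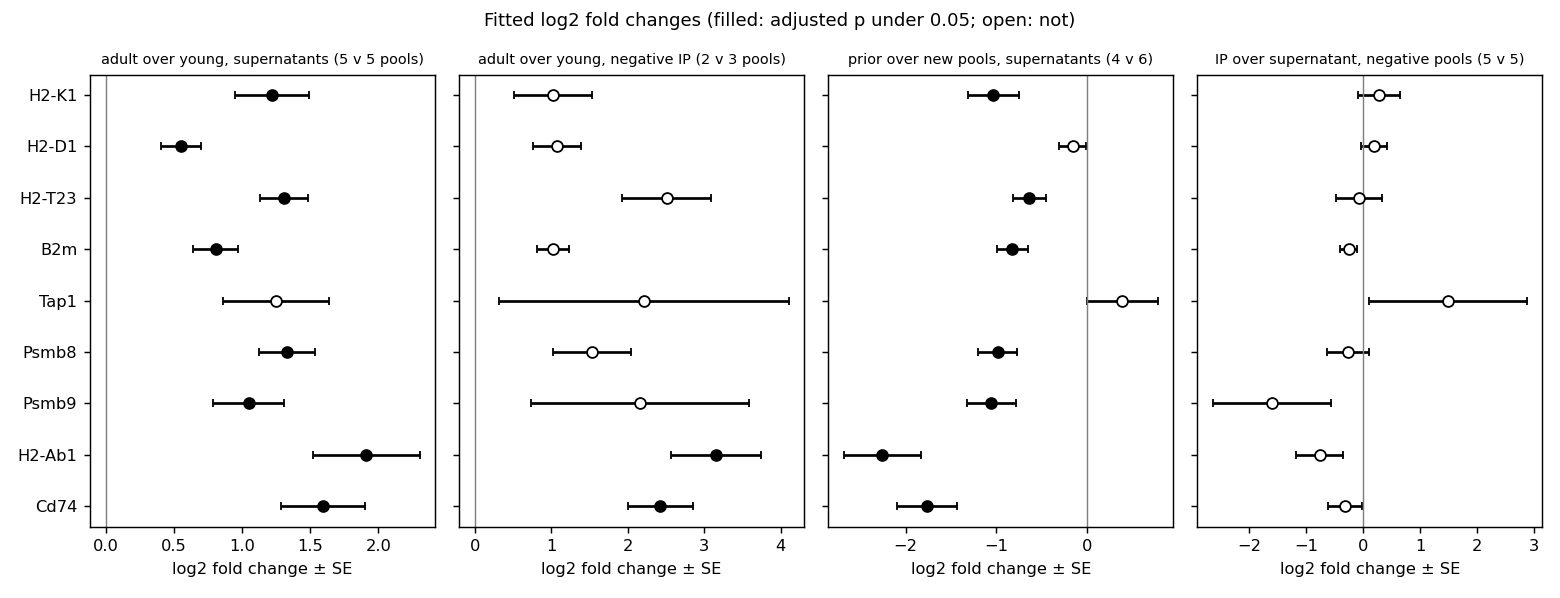
Log2 fold change (horizontal) with its SE for the 9 genes in 4 comparisons, with filled points where the edgeR adjusted p was under 0.05. Age in the supernatants gave positive values throughout, with 8 filled, and prior over new pools gave 7 filled negative values. The negative IP had filled points for H2-Ab1 (3.15) and Cd74 (2.43) alone, and IP over supernatant had none.

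Markers of immune cells were read beside the age difference. Of 10 microglial markers 3 rose with age and none fell, among them C1qa (log2 0.86, edgeR adjusted p = 0.0239) and Trem2 (0.91, adjusted p = 0.0359). The 10 summed to 61.5 to 107 CPM in adult and 51.2 to 89.7 CPM in young pools, and none was at 0. Of 7 border macrophage markers tested none was called, and the list of 8 summed to 5.94 to 23.6 CPM in adult against 8.0 to 29.5 CPM in young pools. Dendritic cell markers summed to 7.35 to 12.2 CPM in adult and 6.43 to 11.1 CPM in young pools, with none of 3 tested called. Itgax, the gene of the integrin CD11c, was at 0 in every adult pool and at 0 to 4 counts in the young pools, near the floor. Lymphocyte markers summed to 11.6 to 17.0 CPM in adult and 11 to 21.9 CPM in young pools, with none of 3 tested called. Cd3g, Ms4a1, Nkg7 and Gzma were at 0 in every young pool. Each of these had a count in some adult pool, but Ms4a1 was at or under the floor in all adult pools. None of 8 endothelial markers (8.86 to 32.7 CPM in adult, 11.9 to 47.5 CPM in young pools) or of 6 meningeal markers (27.0 to 259 CPM in adult, 23.8 to 431 CPM in young pools) was called. Oligodendrocyte markers summed to 2380 to 5130 CPM in adult and 4300 to 6670 CPM in young pools, with 3 of 6 lower. The part of microglia and of the other cells in the age difference was not tested.

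Other genes of the same pathways moved in part. Of 10 further genes of the class I pathway tested, 3 rose and none fell, with a median of 0.34. They were Tap2, the partner of Tap1 in the transporter (log2 1.60, edgeR adjusted p = 0.00177), Psme2, a subunit of the proteasome activator PA28 (0.45, adjusted p = 0.000955), and Tapbp, which encodes tapasin of the loading complex (0.41, adjusted p = 0.024). None of 12 other rows listed as class I and class I-like heavy chains was called (median 0.47), and the H2-Ke6 row among them encodes a steroid dehydrogenase despite its symbol. Of 9 further class II genes, 4 rose and none fell, with a median of 0.28. H2-Aa, the alpha chain of I-A (1.93, adjusted p = 0.0243), H2-DMb1, of the peptide exchange factor H2-M (1.74, adjusted p = 0.0174), and H2-Eb1, the beta chain of I-E (1.38, adjusted p = 0.0174), were among them. Ctss, the protease that trims the invariant chain, had 1.24 (adjusted p = 0.00159). Ciita, the coactivator of class II genes, had 0.02 (adjusted p = 0.986).

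Interferon-stimulated genes had 5 of 16 higher with age, none lower and a median of 0.63, with all 16 fold changes positive. Ifit1 (log2 1.59, edgeR adjusted p = 0.0143), Ifit3 (1.04, adjusted p = 0.0101), Bst2, which tethers budding virus (1.38, adjusted p = 0.0304), Xaf1 (1.20, adjusted p = 0.00525) and Irgm1, an interferon-induced GTPase gene (0.59, adjusted p = 0.0253), passed. In the same list 7 of 16 were lower in prior than in new pools. Of 15 genes of interferon signalling, the receptor gene Ifnar2 rose (0.62, adjusted p = 0.025) and the receptor gene Ifngr2 fell (-0.34, adjusted p = 0.00991), with a median of 0.26. The constitutive subunits of the 20S proteasome went the other way in part, with 2 of 14 lower, Psmb7 (-0.37, adjusted p = 0.00727) and Psma7 (-0.25, adjusted p = 0.0399), none higher and a median of -0.09.

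**Figure D3:**
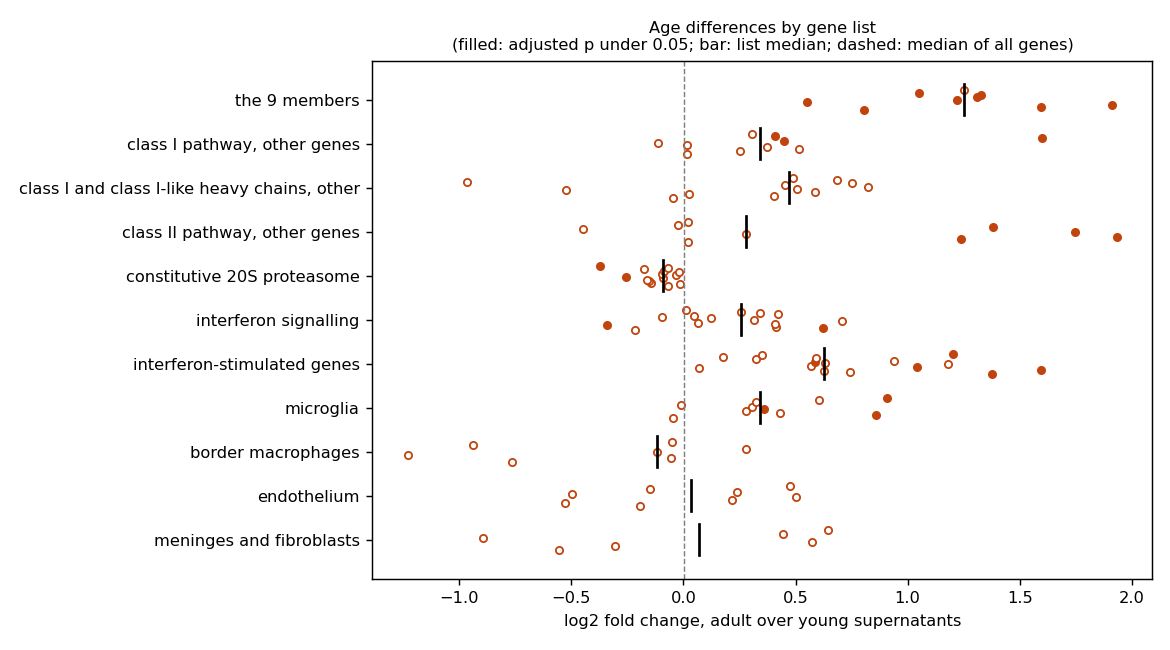
Log2 fold change of adult over young supernatants (horizontal) for the 9 members and for 10 lists of pathway and marker genes; each point is a gene, filled where the edgeR adjusted p was under 0.05, and the black bar is the list's median. The members have a median of 1.25, against 0.63 for interferon-stimulated genes, 0.34 for microglial markers and -0.09 for constitutive 20S subunits.

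The 3 inducible catalytic subunits were also set against the constitutive subunits whose place they take, as log2 ratios of counts within each library, which do not depend on library scaling. Psmb8 over Psmb5 was 3.11% in adult and 1.07% in young pools (geometric means of counts), with log2 means of -5.01 ± 0.47 and -6.54 ± 0.69 (adult and young, SD, n = 5 each). The difference was 1.54 (two-sided exact permutation p = 0.0159, 0.0238 adjusted over the 3 ratios). Psmb9 over Psmb6 was 0.936% in adult and 0.442% in young pools, with a log2 difference of 1.08 (exact permutation p = 0.0317, 0.0317 adjusted). Psmb10 over Psmb7 was 39.7% in adult and 30.4% in young pools, with a log2 difference of 0.386 (exact permutation p = 0.0159, 0.0238 adjusted). The smallest p that 5 against 5 pools allow is 0.00794. In the last ratio Psmb10, the third inducible subunit, had a log2 fold change of 0.02 (edgeR adjusted p = 0.934), and Psmb7 is the subunit that fell. In each ratio some adult pool lay below the highest young pool. For Psmb9 over Psmb6 the exact test gave an adjusted p of 0.0635 when any of 6 libraries was left out (the GFP-positive pool, adult negative pool 1 or 2, young negative pool 1, young prior pool 1 or 2). Within the 3 adult and 3 young new pools the log2 differences were 1.48, 1.36 and 0.414, where the exact test cannot go below 0.1.

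**Figure D4:**
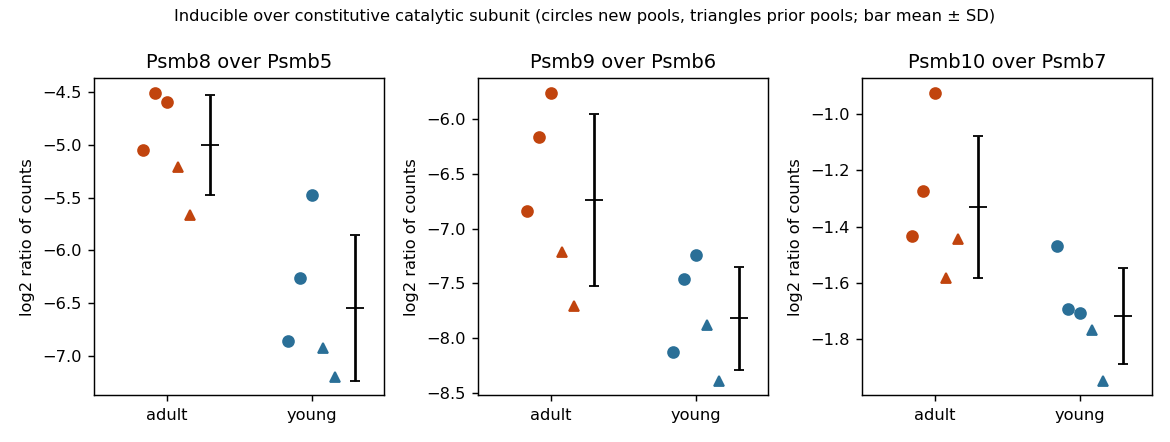
Log2 ratio of the counts of an inducible to a constitutive catalytic subunit (vertical) in the 10 second-set supernatants, adult left and young right, with circles for new and triangles for prior pools and the mean ± SD beside them. The adult means are -5.01, -6.74 and -1.33 and the young means -6.54, -7.82 and -1.72.

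How the 9 genes ran together over the 10 pools is given as a description, since the pools share age and origin. Pearson's r of log2 CPM between class I side genes lay between 0.322 and 0.942 (median of 21 pairs 0.857), and with the means of age and origin removed between 0.019 and 0.907 (median 0.591). H2-Ab1 and Cd74 had r = 0.958 (0.807 with age and origin removed). Pairs across the sides had a median of 0.865, and of 0.437 with age and origin removed. The lowest value was r = 0.175, between Tap1 and H2-Ab1 (-0.231 with age and origin removed). With them removed Tap1 had r = 0.767 with B2m and H2-D1 had r = 0.019 with Psmb8. Likeness was ranked over 11772 genes at a mean log2 CPM of at least 2, a number that includes members, which were left out of the ranking. The mean profile of the class I side over 10 pools was most like Evi2a (r = 0.975), Gpm6b (0.973), Hapln2 (0.972), Fxyd1 (0.971) and Trip10 (0.971). The class II profile was most like Lyz2 (0.968), which encodes a lysozyme of macrophages, Aldh2 (0.96), H2-Eb1 (0.955), Rdm1 (0.954) and Apod (0.953). With the age means removed, but not those of origin, these 10 values lay between 0.92 and 0.973. The difference between prior and new pools thus remains in them, unlike in the centred values between members. They are also the highest of many genes, so they do not show that these genes follow the members pool by pool.

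The IP of the negative pools, which had no tagged ribosomes, was set against their supernatants. Of the 9 genes edgeR called none, and none had an unadjusted p under 0.05, where 32.1% of the 16361 genes tested were called, 15.8% higher and 16.2% lower. DESeq2 called none of the 8 for which it gave an adjusted p, with none given for Tap1. The log2 fold changes of IP over supernatant ran from -1.60 (Psmb9, SE 1.04) to 1.49 (Tap1, SE 1.38), with a median of -0.26. B2m, with the smallest error, stood at 45.2 and 50.7 CPM in adult and 24.3, 24.9 and 23 CPM in young IP libraries, against 48.1 and 62.9 CPM in adult and 23.3, 28.5 and 33.1 CPM in young negative supernatants. It gave a log2 fold change of -0.26 (SE 0.15, edgeR adjusted p = 0.24). The constitutive 20S subunits fell together in this comparison, 13 of 14, with a median of -0.60. Of the other class I pathway genes 3 of 11 fell, Psme2 (-0.96), Psme1 (-0.59) and Psmb10 (-0.55), and among the genes of interferon signalling Socs1 (1.88), Jak1 (1.01) and Ifnar1 (0.79) were the highest of 4 of 15 that rose.

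Tap1 was uneven between IP libraries. It stood at 8.56 and 5.97 CPM in the adult negative IP and at 0, 0 and 4.84 CPM in the young negative IP, where a count of 0 allows up to 0.0588 and 0.0774 CPM. The negative supernatants held 2.19 and 2.03 CPM in adult and 0.327, 0.724 and 0.946 CPM in young pools, so the 3 IP libraries with reads lay above every one of them. Psmb9 stood at 2.81 and 3.27 CPM in the adult and at 0.137, 1.91 and 0 CPM in the young negative IP, against 6.14 and 8.56 CPM in adult and 1.89, 2.79 and 2.81 CPM in young negative supernatants. Within each age Psmb9 overlapped between IP and supernatant in the young pools alone. H2-Ab1 (log2 -0.76, SE 0.41) and Cd74 (-0.32, SE 0.30) had negative values that did not pass. Without young IP 3, the fold change of Tap1 turned to log2 -2.97 (edgeR adjusted p = 0.0142). That value rests on the young IP libraries left, both with 0 counts of Tap1. The adult IP libraries, at 8.56 and 5.97 CPM, still lay above the adult negative supernatants, at 2.19 and 2.03 CPM. Without young IP 2, Psmb9 had -3.23 (adjusted p = 0.0112).

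Age differences were also tested for the negative IP, 2 adult against 3 young pools, in the fit of all 10 negative libraries. The supernatants thus enter the estimate of the spread, and the p-values do not measure the spread between IP libraries alone. A fit of the IP libraries alone, with the title number as a block, called none of the 9. H2-Ab1 stood at 10.4 and 20.5 CPM in the adult IP against 1.47, 0.903 and 2.91 CPM in the young IP, and Cd74 at 28.4 and 59.1 CPM in the adult IP against 6.64, 8.18 and 9.93 CPM in the young IP. In neither gene did the ages overlap. The same held for 8 of the 9 genes, all but H2-K1, with the adult IP above the young IP, where 12.4% of all genes were separated in this direction and 11.8% in the other. Both rose, H2-Ab1 by 3.15 on the log2 scale (SE 0.59, edgeR adjusted p = 0.0471) and Cd74 by 2.43 (SE 0.43, adjusted p = 0.0401), where 0.727% of all genes were called, 0.324% higher and 0.403% lower. The 7 class I side genes had positive values that did not pass. H2-T23 stood at 18.8 and 19.7 CPM in the adult IP against 5.04, 4.23 and 1.02 CPM in the young IP (log2 2.51, SE 0.58, adjusted p = 0.0807). B2m had 1.02 (SE 0.21, adjusted p = 0.0587) and H2-D1 1.07 (SE 0.32, adjusted p = 0.137). Without young IP 3 the edgeR test called 4 of the 9, with H2-T23 (adjusted p = 0.0324) and Tap1 (0.0256) added. Without any other of the 10 negative libraries, IP or supernatant, it called none, with adjusted p of 0.0534 to 0.129 for H2-Ab1 and 0.0531 to 0.108 for Cd74. Over all genes the calls numbered 0 to 458 in place of 119, and DESeq2 called 6 of the 9 and 1542 in all. Microglial markers summed to 83.7 to 90.9 CPM in the adult and 69.7 to 93.9 CPM in the young IP, and endothelial markers to 24.6 to 90.6 CPM in the adult and 23.8 to 25.7 CPM in the young IP. Their part was not tested. Ptprc, which encodes the leukocyte antigen CD45, was at 0 and 2.26 CPM in the adult IP and at 0 in each young IP.

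Whether the age difference depended on the fraction was tested as an interaction over the negative pools. None of the 9 was called, and the values ran from log2 -0.58 (H2-K1, SE 0.73) to 0.95 (H2-T23, SE 0.82). Over all genes edgeR called 0 (0%), with 1068 at an unadjusted p under 0.05, and DESeq2 149. The SE of these differences lay between 0.30 (B2m) and 2.72 (Tap1), so a dependence as large as the age effect itself would not have been detected for most of the 9. The count over all genes was 67 without adult IP 2.

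**Figure D5:**
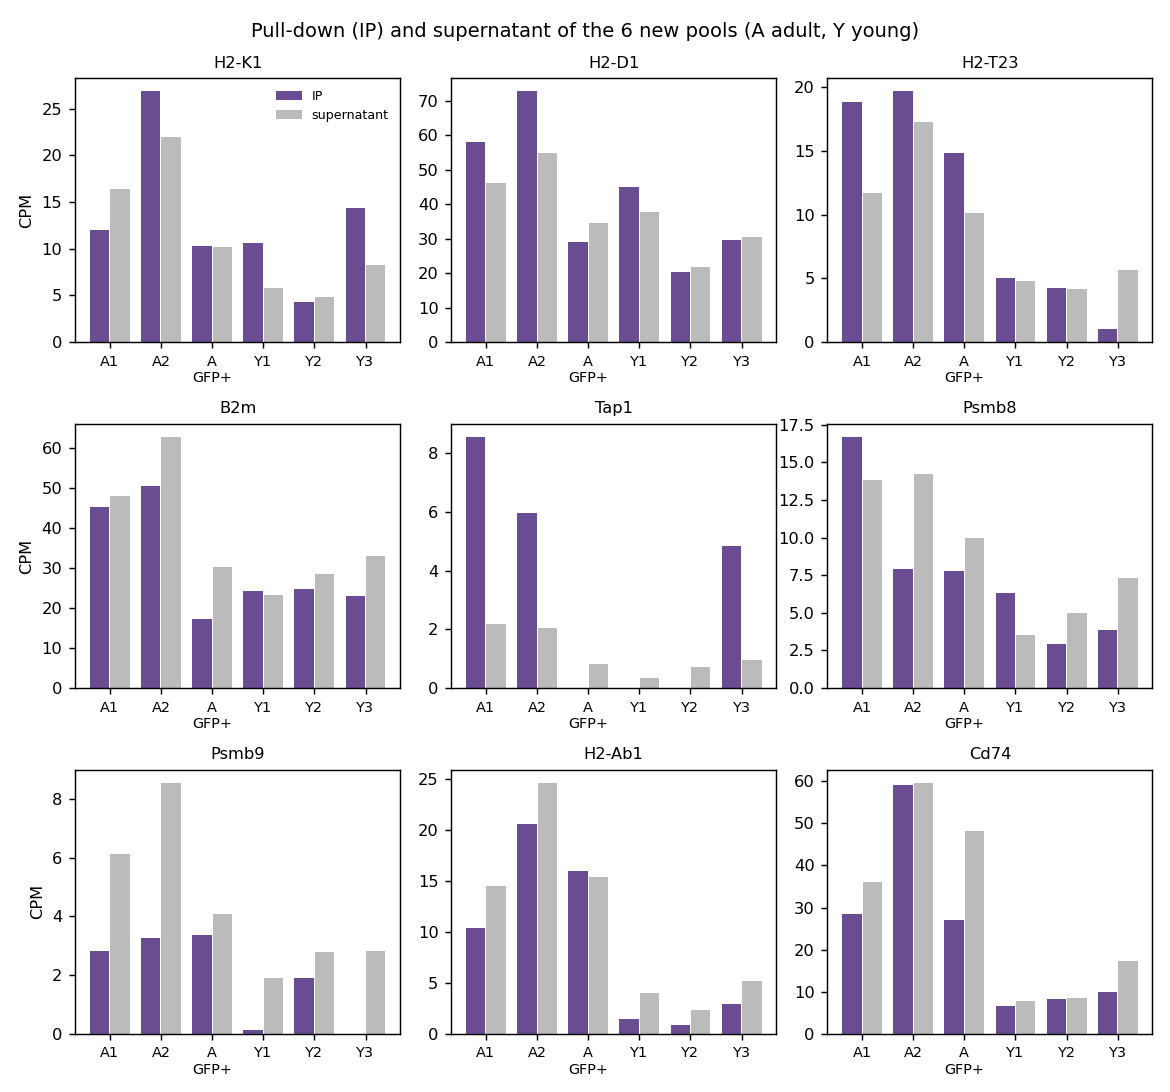
CPM of the 9 genes in the IP (purple) and the supernatant (grey) of the 6 new pools, side by side by title number, each bar a single library, with adult pools (A) left of young pools (Y). Tap1 is at 0 CPM in the IP of young pools 1 and 2 and of the GFP-positive pool, while H2-Ab1 and Cd74 are higher in both fractions of the adult pools than in those of the young pools.

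The GFP-positive pool has 1 IP library, so its values carry no test. Cd74 stood at 27.1 CPM in this IP against 48.3 CPM in the GFP-positive supernatant, B2m at 17.3 against 30.3 CPM and H2-D1 at 29.1 against 34.6 CPM. H2-T23 was at 14.8 CPM in the IP against 10.1 CPM in the supernatant. H2-Ab1 stood at 15.9 CPM in the IP against 15.4 CPM in the supernatant, and H2-K1 at 10.3 against 10.2 CPM. Tap1 had no count in the IP, which allows up to 0.0621 CPM, against 0.80 CPM in the supernatant. Against the 2 adult negative IP libraries, 7 of the 9 genes lay below both, where 33.1% of all genes tested in the IP did and 31.7% lay above both. As a ratio B2m was farthest apart among those detected, at 17.3 CPM against 45.2 and 50.7 CPM in the adult negative IP. In CPM H2-D1 was farther apart, at 29.1 against 57.9 and 72.8 CPM. Psmb8 (7.76 against 7.92 and 16.7 CPM) and Cd74 (27.1 against 28.4 and 59.1 CPM) lay just below. Psmb9 lay above both, at 3.37 against 2.81 and 3.27 CPM, and H2-Ab1 between them. Against all 5 negative IP libraries, young ones included, 7 of the 9 lay within the range, B2m below it and Psmb9 above it.

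The 4 prior pools were sequenced from the same RNA in both sets, and the sets were compared. With the pool as a block, B2m was higher in the second set by log2 0.61 (SE 0.10, edgeR adjusted p = 0.000262) and H2-D1 lower at -0.25 (SE 0.08, adjusted p = 0.0317). The other 7 were not called, where 32.4% of the 15573 genes tested were, 15.7% higher and 16.7% lower. B2m stood at 28 and 29.2 CPM in adult and 15.5 and 14.5 CPM in young prior pools in the second set, against 20.7 and 16.4 CPM in adult and 10.7 and 9.08 CPM in young prior pools in the first set. Its adult libraries stood above the young ones in both sets. H2-D1 lost its call without young prior pool 2 (adjusted p = 0.219) and without adult prior pool 4 (0.0693), and without the block. Of the constitutive 20S subunits 11 of 14 were higher in the second set, with a median of 0.27. Here the p-values measure the spread between repeats of the same RNA.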

How the data were processed

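The authors deposited whole-number read counts per gene for 20 libraries, with no normalization, in 1 table of 19269 gene symbols. Per the labels' protocols, RNA was cleaned on micro columns with DNase, and libraries came from a SMARTer v4 kit for ultra-low polyA input. Per the submitters' processing notes, HTSeq 0.6.1, DESeq2 1.14.1, TopHat2 2.0.13, Cuffdiff 2.1.1, Bowtie2 2.2.1, FastQC 0.11.3 and Cufflinks were used, and the build was mm10. The sources used here gave no strand setting, annotation, read length or treatment of duplicate reads. Floors therefore cover counting error only.

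Groups followed the sample titles. The series text names the GFP-positive supernatant in conflicting ways, and the descriptions number the adult negative supernatants 2 and 3 where the titles number them 1 and 2.

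Tests used edgeR 4.0.16 in R 4.3.3 (quasi-likelihood, trimmed-mean scaling, filterByExpr with minimum count 10, Benjamini-Hochberg over all genes tested, threshold 0.05). They were first run on simulated data with the same spread for all genes and no effect of pool origin. That setting differs from these libraries, so the run does not show how well the tests work on them. The fits were age with pool origin (7 residual degrees of freedom), the 10 negative libraries by age and fraction (6), and sequencing set with pool (3). Ratios had 0.5 counts added and exact permutation tests (scipy 1.17.1). Alternatives were DESeq2 1.42.0, its size factors, no filter, subsets of pools, other libraries of the prior pools, a replicate block and leaving out each library.

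The 9 genes and all lists were chosen with earlier results of these data known. Beside the 9, genes named were those called with age, at most 8 a list, and at most 3 a list in other comparisons, with the 5 of highest likeness; the inducible and constitutive catalytic subunits, Ciita, Gnrh1, Ptprc and genes at 0 were named beyond this after their values were seen. The values of 1 gene called with age are not reported here.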

Additional observations from a re-analysis of the deposited data

How the results depend on the processing

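In the age comparison of the supernatants all 180 fold changes of the 9 genes in 20 alternatives were positive, while the number of calls varied. Of the 9 genes, 8 rose; 2 did with age alone, 5 in new pools only, and 0 in prior pools only (second set or first set), with 6 to 9 when 1 library was left out. The genes called in all numbered 1517, against 2276 by DESeq2, 655 with age alone, 481 in new pools, 256 in negative pools, 11 and 28 in prior pools (second and first set), and 731 to 1723 with 1 library left out. The 3 subunit ratios (Psmb8, Psmb9, Psmb10) kept their sign; they were 1.48, 1.36 and 0.41 in new pools (adjusted p = 0.1, exact test) and 1.65, 1.65 and 0.53 in negative pools (0.2), designs too small to pass. Psmb9 over Psmb6 ranged from 0.84 to 1.32 with 1 library left out and passed in 4 of 10.

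For pool origin, the 7 lower members became 2 to 7 and the 2054 genes in all 313 to 2519 with 1 library left out; DESeq2 called 3100 in all, and first-set libraries 6016, with H2-D1 turning to 0.10. Higher calls were 55.7% of these, 46.8% with DESeq2's size factors and 47.5% by DESeq2.

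For IP over supernatant, adult pools alone gave 1779 genes in all and turned H2-K1 to -0.006 and H2-T23 to 0.39. Leaving out 1 library gave 0 or 1 lower member, H2-K1 from -0.059 to 0.513, H2-T23 from -0.268 to 0.139 and Tap1 from -2.97 to 1.78. The age by fraction count of 0 was 149 by DESeq2 and 0 to 67 with 1 library left out. In the negative IP the 2 members and 119 genes became 6 and 1542 by DESeq2, and 0 to 4 and 0 to 458 with 1 library left out.

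Equal replicate numbers of IP and supernatant deviated together only weakly (r 0.089 to 0.25), and the labels do not state a pairing. With the pool as a replicate block, 4970 genes and 0 members were called for IP over supernatant, Tap1 turned to -0.85, and age by fraction gave 0. With the number as a block, the negative IP gave 1 gene and 0 members, and the supernatants 1451 genes, H2-D1 losing its call (adjusted p = 0.126).

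Between sequencing sets, leaving out the replicate block gave 2292 genes in all instead of 5042, 0 instead of 1 lower member, and -0.003 for Psmb8 (main 0.001). Psmb8 was -0.012 by DESeq2, -0.01 with its size factors and -0.003 without the filter. With 1 pool left out, H2-K1 ranged from -0.063 to 0.238, H2-T23 from -0.061 to 0.122, Psmb8 from -0.062 to 0.038, and the lower members from 0 to 1. The cause of these changes was not tested. In the IP, counts of 0 limit what can be said of Tap1 and Psmb9.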
